A study of Mus musculus with 4 samples.

Results

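The 9 genes described here encode 5 ligands (*Il34*, *Csf1*, *Cx3cl1*, *Cd200* and *Cd47*) and the 4 receptors through which they reach microglia (*Csf1r*, *Cx3cr1*, *Cd200r1* and *Sirpa*), and they were taken by symbol out of 32285 measured genes. The question was which cells of the lateral septum (LS) carried each ligand and each receptor, and whether these levels differed between immune backgrounds. Nuclei were isolated from the LS of male mice aged 6 to 8 weeks, with the tissue of 3 mice pooled in each of 4 libraries, and sequenced by 3′ single-nucleus RNA sequencing, which counts RNA molecules by their unique molecular identifiers (UMIs). C57J 1 and C57J 2 were libraries of C57BL/6JNifdc mice. The nude library came from BALB/c nude mice, which lack T cells because of a *Foxn1* knockout and descend from the BALB/c strain, and the BALB/c library came from BALB/c mice with intact *Foxn1*. C57J 1 was sequenced in batch 1 and the other 3 libraries in batch 2. As nude and BALB/c were single pooled libraries of one strain background, the C57J pair against the nude and BALB/c pair is a comparison of backgrounds, and the immune state cannot be told apart from the strain in it. The replicates are pools, so p-values measure the spread between libraries and not between mice. The spread within the pairs also holds the T cell difference between nude and BALB/c and the batch difference between C57J 1 and C57J 2.

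IL-34 and CSF1 are alternative ligands of the receptor tyrosine kinase CSF1R, on which microglia depend for survival. In the adult brain IL-34 is known mainly as a neuronal product and CSF1 as a glial one. Fractalkine, the product of *Cx3cl1*, is a chemokine anchored in the neuronal membrane that can be shed, and CX3CR1 is its receptor on microglia. CD200 and CD47 are surface proteins of the immunoglobulin superfamily that hold myeloid cells in check. CD200 acts through the inhibitory receptor CD200R1, and CD47 acts through SIRPA, whose signal restrains phagocytosis.

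The libraries held 72912922 to 125998527 UMIs in 12558 to 17025 barcodes, with the highest median depth in BALB/c (8836 UMIs against 4429 to 5081). Any pair of libraries shared 29 to 63 barcode sequences. After quality limits and removal of predicted doublets, 49425 nuclei were kept and grouped into classes without the use of the 9 genes. Class names stand for clusters that resemble a cell type by its markers. LS neurons (19126 nuclei, marked by *Trpc4*, *Dgkg* and *Homer2*), astrocytes (7241), oligodendrocytes (OLs, 5198), striatal neurons (3194) and oligodendrocyte precursors (OPCs, 1842) were the large named classes. A further 7471 nuclei, 6798 of them neurons, stayed in unnamed clusters and enter no named class or LS cluster. Microglia (1315 nuclei) were marked by a list of 7 genes, all detected, among them *Selplg*, *P2ry12*, *Tmem119*, *C1qa*, *Siglech* and *Inpp5d*, and numbered 323, 381, 321 and 290 nuclei in C57J 1, C57J 2, nude and BALB/c. Values below follow this order of libraries unless stated, and a level is the number of UMIs of a gene per 1000000 UMIs of the class in that library (CPM). Most astrocytes of BALB/c lay in another cluster (1226 nuclei in cluster n2) than most astrocytes of C57J 1, C57J 2 and nude (943 to 1103 nuclei in cluster n0). OLs were split likewise, with 861 to 1133 nuclei of those 3 libraries in cluster n1 and 549 and 877 BALB/c nuclei in clusters n6 and n7. RNA of neurons was found in every glial class: the summed level of the neuronal markers *Snap25*, *Syt1*, *Rbfox3* and *Grin1* in microglia was 40.5%, 49.5%, 52.5% and 22.3% of that in LS neurons.

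Bases before the RefSeq start of the fractalkine gene and of its receptor are shown. This pair combined a ligand found in every large class with a receptor concentrated in microglia. RefSeq promoter windows on GRCm38.p6 covered 5 of the 9 genes. The 250 bases before the RefSeq start of *Cx3cl1* lie at chr8:94771930-94772179 on the plus strand and those of *Cx3cr1* at chr9:120068297-120068546 on the minus strand. The GENCODE start of *Cx3cl1* (94772009) falls inside its window. The *Cx3cr1* window lies wholly inside the GENCODE gene (119901616 to 120069879). By GENCODE, the bases shown are therefore not all upstream of these genes. Capitals mark GC boxes (CCGCCC or GGGCGG) and TATA boxes (TATAAA or TTTATA), searched on both strands.
Cx3cl1: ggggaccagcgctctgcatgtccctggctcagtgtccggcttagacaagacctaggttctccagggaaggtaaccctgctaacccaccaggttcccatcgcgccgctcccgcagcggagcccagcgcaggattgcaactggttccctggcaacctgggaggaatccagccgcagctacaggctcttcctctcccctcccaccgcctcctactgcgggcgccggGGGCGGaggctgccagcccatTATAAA
Cx3cr1: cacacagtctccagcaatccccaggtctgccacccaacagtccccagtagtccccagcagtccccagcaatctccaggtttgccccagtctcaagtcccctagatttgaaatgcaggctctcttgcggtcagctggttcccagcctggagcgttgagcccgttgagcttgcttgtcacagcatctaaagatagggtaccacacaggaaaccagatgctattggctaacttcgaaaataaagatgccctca
The *Cx3cl1* window held 64.8% GC, 14 CpG dinucleotides, 1 GC box and 1 TATA box. The *Cx3cr1* window held 53.6% GC and 4 CpG dinucleotides, and neither box is spelled in it. Among all 32851 windows of this length the median GC content was 52.4% with a median of 6.0 CpG dinucleotides, 32.7% held a GC box and 12.4% held a TATA box.

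*Il34* (chr8:110741829-110805924, minus strand) was carried by all neuron classes, and among them LS neurons stood lowest. Its level in LS neurons was 6.11, 6.25, 6.61 and 6.41, a narrow range over the 4 libraries. In striatal neurons it was 20.1, 21.7, 17.5 and 20.1, above LS neurons in each library by a log2 ratio of 1.64 ± 0.17 (SD, n = 4). Cholinergic neurons (13.5 to 18.8) and glutamatergic *Slc17a6* neurons (6.97 to 18.9) came next, and their ranges overlapped. *Elavl2*/*Lhx6* GABAergic neurons (6.74 to 10.7) lay above LS neurons in 4 of 4 libraries without overlap. Glia were lower than LS neurons, with 1.79 to 4.48 in astrocytes, 1.60 to 3.82 in OLs and 3.08 to 4.39 in OPCs. These glial values rest on 14 to 17, 5 to 12 and 4 to 10 UMIs per library. The log2 ratio of LS neurons to astrocytes was 1.10 ± 0.60 (SD, n = 4), so the neuronal excess was uneven across libraries. *Il34* was also read in a class of 113 vascular nuclei, where 8, 29, 7 and 0 UMIs gave 126, 204, 202 and 0 CPM. The 0 came from 3 BALB/c nuclei and allowed up to 157 CPM. With predicted doublets kept, this class held 55, 88, 39 and 99 nuclei and *Il34* was 129, 167, 84.8 and 129, all above the highest neuronal value. Its make-up changed with them. Fibroblast markers summed to 165, 162, 201 and 801 CPM, against 0 in BALB/c with doublets removed. The part of doublets and of other cells in these *Il34* values was not tested.

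*Csf1* (chr3:107741048-107760469, minus strand), the second ligand of CSF1R, was glial. OLs held 64.6, 72.1, 50.4 and 58.0, and astrocytes held 31.5, 39.1, 34.5 and 27.1. LS neurons held 2.01, 2.03, 1.54 and 0.988, so neurons and the main glial classes did not overlap in any library. The log2 ratio to LS neurons was 5.27 ± 0.41 for OLs and 4.38 ± 0.34 for astrocytes (SD, n = 4). OLs exceeded astrocytes in 4 of 4 libraries, by 0.89 ± 0.25 (SD, n = 4). OPCs (5.39 to 12.4) and microglia (8.19 to 11.04) had means between these glia and LS neurons and overlapped each other, and *Slc17a6* (0.929 to 8.32) and cholinergic neurons (4.05 to 7.53) reached into their ranges. The label of a neuronal ligand therefore did not hold for *Csf1* in these nuclei. The 2 CSF1R ligands thus stood in opposite classes. As whole classes, neurons held more *Il34* than macroglia, and OLs and astrocytes held more *Csf1* than neurons. This order for *Il34* did not hold in each LS neuron cluster. Its means in LS clusters 18 and 13 (1.34 and 2.47) were below those of astrocytes (3.17), OLs (2.83) and OPCs (3.585).

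*Cx3cl1* (chr8:94772009-94782427, plus strand) had its highest mean among the named classes in striatal neurons (102, 76.5, 66.0 and 105), followed by LS neurons (67.6, 56.6, 51.1 and 79.5). Striatal neurons exceeded LS neurons in each library, by a log2 ratio of 0.45 ± 0.10 (SD, n = 4). The order of the classes differed between libraries. Neuroblasts exceeded striatal neurons in C57J 2 (93.1 against 76.5), and vascular nuclei did in nude (86.6, from 3 UMIs, against 66.0). The ranges of neuroblasts (34.5 to 93.1), microglia, OLs, astrocytes and OPCs overlapped with that of LS neurons. *Elavl2*/*Lhx6* GABAergic neurons (40.2 to 46.8), dividing cells (23.0 to 50.1) and committed OPCs (9.78 to 38.8) lay below it. *Slc17a6* (35.8 to 58.45) and cholinergic neurons (35.1 to 54.3) overlapped with LS neurons, but their means were below those of microglia, OLs and OPCs. Within libraries, LS neurons exceeded astrocytes and OPCs in 4 of 4, and microglia and OLs in 2 of 4. In microglia the level was 90.0, 56.5, 58.2 and 20.9, which is 133%, 99.9%, 114% and 26.3% of that in LS neurons. In OLs it was 80.1, 48.0, 57.8 and 26.5, and in astrocytes 61.5, 46.7, 45.8 and 27.0. The BALB/c library, in which the neuronal markers in microglia, astrocytes and OLs were also lowest (13.5% to 22.3% of LS neurons), had the lowest *Cx3cl1* in each of these 3 glial classes. In all 4 libraries the *Cx3cl1* percentage in these classes lay above that of the summed neuronal markers, although *Snap25* alone reached 34.3% to 68.1% of its LS neuron level in microglia. The part of neuronal RNA in the glial values was not tested.

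*Cd200* (chr16:45382135-45409053, minus strand) was similar in the largest neuron classes, with 52.1, 57.5, 54.7 and 55.4 in LS neurons and 49.2, 57.8, 42.4 and 48.2 in striatal neurons. *Slc17a6* neurons (60.4 to 70.2) and *Elavl2*/*Lhx6* neurons (59.3 to 73.4) were above LS neurons without overlap. The highest mean came from the 113 vascular nuclei, where 11, 21, 5 and 0 UMIs gave 174, 148, 144 and 0 CPM. As for *Cx3cl1*, microglia (80.2, 79.1, 73.7 and 39.3), astrocytes (42.2, 47.3, 59.0 and 25.1) and OLs (53.1, 56.6, 59.7 and 27.3) had their lowest value in BALB/c. The log2 ratio of LS neurons to OLs was 0.22 ± 0.54 (SD, n = 4) and above 0 in 2 of 4 libraries, which is no order.

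*Cd47* (chr16:49800533-49915010, plus strand), a signal that most cell types carry, lay between 112 and 303 CPM in each of the 10 classes plotted. LS neurons held 187, 172, 168 and 173, astrocytes 201, 199.8, 192 and 164, and OLs 192, 187, 193 and 146. *Elavl2*/*Lhx6* GABAergic neurons led with 257, 265, 243 and 303, above LS neurons by a log2 ratio of 0.61 ± 0.15 (SD, n = 4) and above microglia (161 to 236) without overlap. The classes that followed, from microglia to LS neurons, overlapped with their neighbours in the order.

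**Figure D1:**
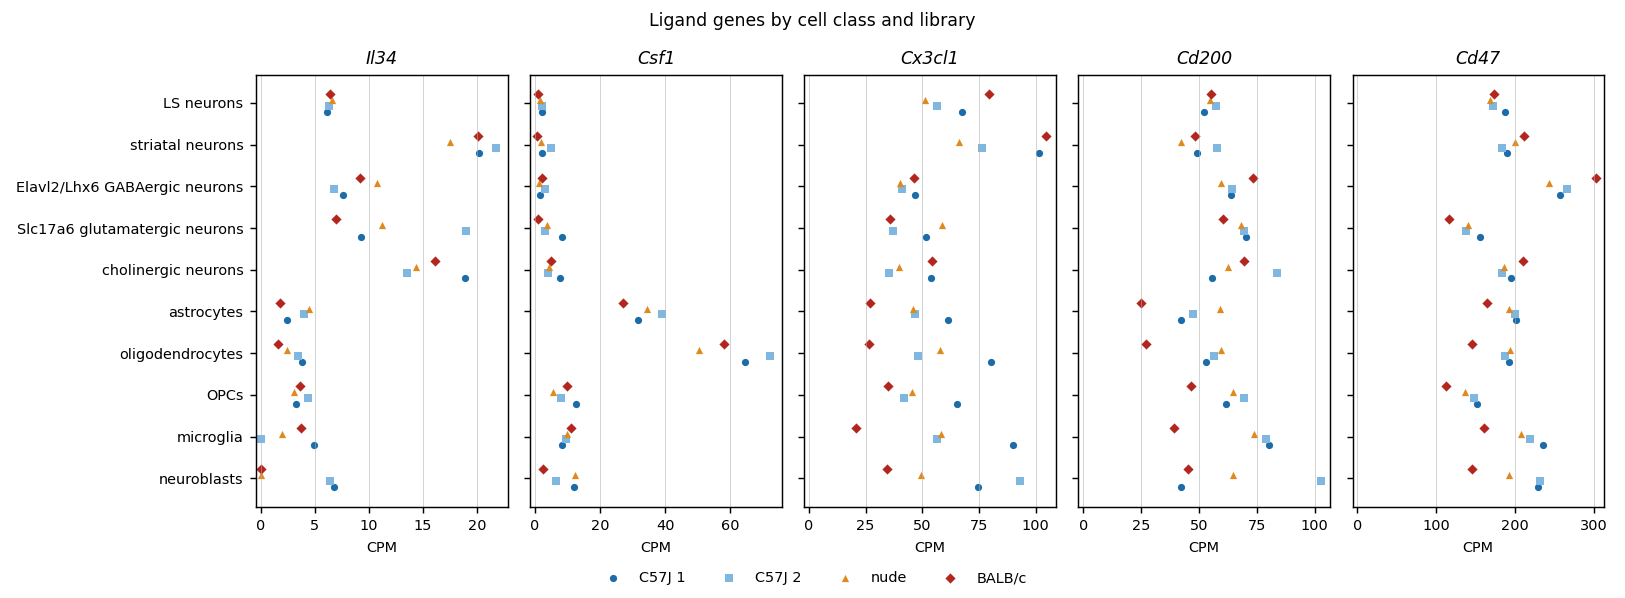
Each panel plots 1 ligand gene in CPM (linear axis) across 10 cell classes, with 1 point per library. Csf1 lay between 27.1 and 72.1 in astrocytes and oligodendrocytes and at or below 2.03 in LS neurons, whereas Il34 was highest in striatal and cholinergic neurons and Cd47 in Elavl2/Lhx6 GABAergic neurons.

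Within the LS, the ligands varied between the 12 clusters of at least 100 nuclei, and the clusters that led differed by ligand. These clusters came from the same nuclei, so their levels are a description without a test. *Il34* had its highest mean in cluster 12, led by *Sema3a*, *Tmem132c* and *Il1rapl2* (8.93, 8.67, 9.57 and 12.4), whose range overlapped with that of cluster 6 (7.76 to 9.64), and its lowest in cluster 18, led by *6330411D24Rik*, *Pde1c* and *Stac2* (0.513, 1.37, 1.47 and 1.99). The highest and lowest cluster did not overlap, and their means differed 7.40-fold. *Cx3cl1* was highest in cluster 6, led by *Tafa1* (83.6, 74.2, 73.0 and 121), and its range overlapped with that of the next cluster, 21 (50.1 to 100.1). The mean of cluster 6 was 1.73-fold above that of the lowest, cluster 2 (41.9 to 59.3).

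*Cd200* was highest in cluster 2, led by *Otx2os1* (69.3, 73.6, 68.6 and 69.0), next in cluster 18 (64.5 to 69.7) and lowest in cluster 31, led by *Cpa6* and *Pappa* (35.4 to 42.7). *Cd47* had its highest means in cluster 31 (215 to 265) and in cluster 21, also led by *Cpa6* (231 to 246) and its lowest in cluster 19, led by *Dach2* (110 to 133). *Sirpa*, a receptor, was 57.4 to 73.6 in cluster 12 and 58.0 to 68.9 in cluster 14, against 20.9 to 29.3 in cluster 13 and 17.2 to 23.5 in cluster 29, which is led by *Foxp2* and *Chrm2*. For *Csf1r*, *Cx3cr1* and *Cd200r1* the ranges of the highest and lowest clusters overlapped.

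**Figure D2:**
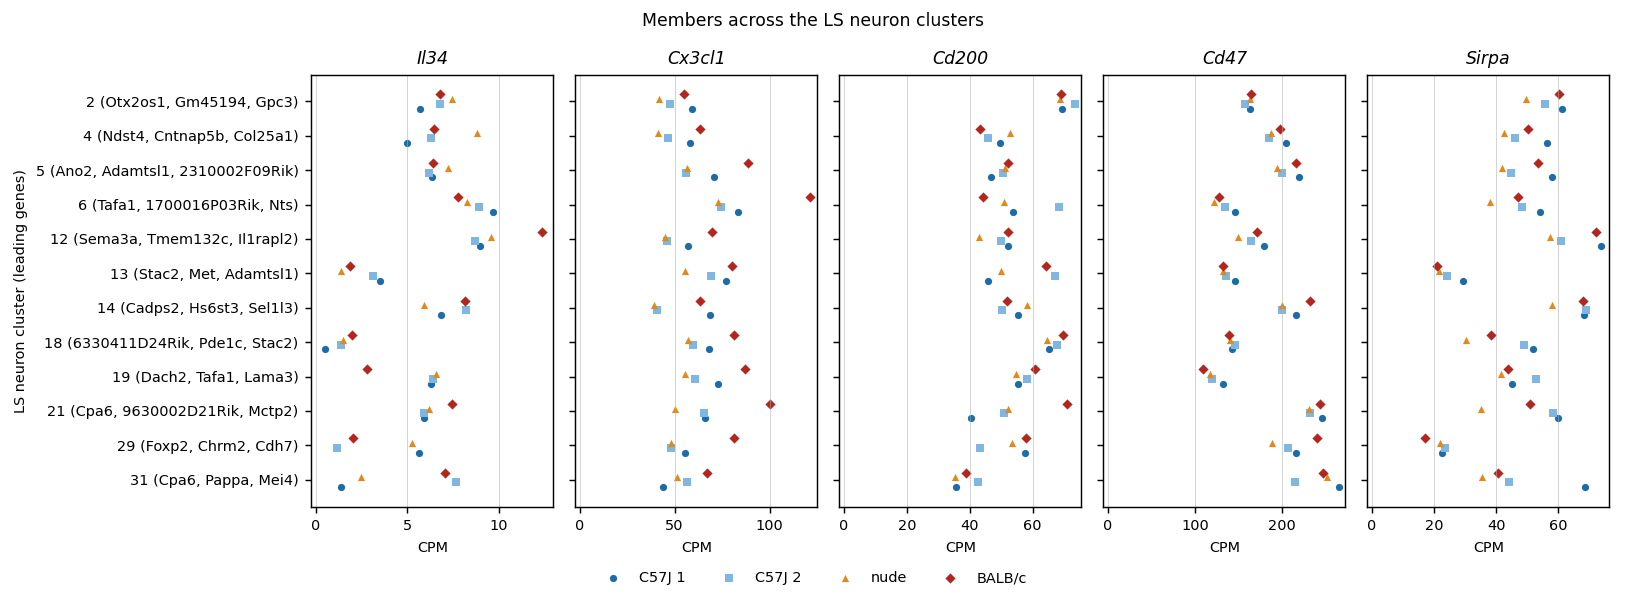
CPM (linear axes) of 5 members in 12 LS neuron clusters, named by number and leading genes, with 1 point per library. Il34 was lowest in clusters 18 and 13, Sirpa in clusters 29 and 13, and Cd47 was 231 to 246 in cluster 21 and 215 to 265 in cluster 31.

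*Csf1r*, on chromosome 18, was highest in microglia by far. Microglia held 683, 568.5, 516 and 990.3, and LS neurons held 3.14, 3.40, 2.03 and 1.40. The log2 ratio of microglia to LS neurons was 8.15 ± 0.91 and to astrocytes 6.49 ± 1.01 (SD, n = 4). *Cx3cr1* (chr9:119901616-120069879, minus strand) followed the same pattern with 712, 523, 495 and 1114 in microglia and 7.17, 9.39, 8.42 and 5.39 in LS neurons, a log2 ratio of 6.50 ± 0.88 (SD, n = 4). Outside microglia both receptors were far lower, as was the summed level of the 7 microglia markers, which in LS neurons was 0.830%, 1.19%, 1.15% and 0.477% of that in microglia. *Csf1r* in LS neurons was 0.460%, 0.599%, 0.392% and 0.141% of its microglial level and *Cx3cr1* 1.01%, 1.79%, 1.70% and 0.483%. In LS neurons of each library *Csf1r* thus lay below the percentage of the markers and *Cx3cr1* above it. The UMI ratio of *Csf1r* to *Cx3cr1* was 0.959, 1.09, 1.04 and 0.889 in microglia and 0.438, 0.363, 0.241 and 0.260 in LS neurons, so the pair was not in 1 ratio across classes. A further class, 56 ependymal nuclei, held 6, 3, 5 and 6 *Cx3cr1* UMIs (52.0 to 115 CPM).

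To compare shares of nuclei at equal depth, each nucleus was thinned to 1000 UMIs and shallower nuclei were left out, which removed 0, 41, 27 and 0 microglia, 1 to 9 astrocytes per library and no LS neuron. *Csf1r* was then found in 49.5%, 42.1%, 40.1% and 62.4% of the remaining microglia and *Cx3cr1* in 48.6%, 37.7%, 38.1% and 59.7%. In LS neurons, which should lack *Csf1r*, it was found in 0.434%, 0.362%, 0.213% and 0.177% of thinned nuclei. Before thinning, the median depth was 1337 to 2662.5 UMIs in microglia and 6565 to 12825 in LS neurons, and *Csf1r* was read in 53.6% to 92.4% and 1.45% to 2.69% of nuclei. At least 1 of *Csf1r*, *Cx3cr1* and *Sirpa* was read in 96.0%, 88.2%, 87.2% and 99.0% of unthinned microglia, and all 3 in 37.5%, 16.8%, 18.4% and 70.0%. Both shares were highest in BALB/c and next in C57J 1, which also had the deepest microglia.

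*Sirpa* (chr2:129592835-129632228, plus strand) was not a microglial gene alone. It was highest in microglia (764.5, 674, 510.3 and 698) and second in astrocytes (189, 155.5, 175 and 159), and neither range overlapped with LS neurons (55.4, 48.7, 41.7 and 50.3). The log2 ratio was 1.96 ± 0.28 for microglia over astrocytes and 1.79 ± 0.19 for astrocytes over LS neurons (SD, n = 4). In astrocytes this was 22.7% to 34.2% of the microglial level, whereas the 7 microglia markers there reached 0.938% to 2.35%. At 1000 UMIs per nucleus *Sirpa* was found in 17.0%, 15.01%, 17.1% and 14.2% of astrocytes and in 4.20% to 5.19% of LS neurons. Striatal neurons (72.9, 72.3, 59.9 and 80.9) exceeded LS neurons in each library. OLs held 52.8, 50.1, 45.0 and 18.6, so the BALB/c library stood apart from the other 3 there. It did so in each of the OL clusters n1, n6 and n7 (12.7, 17.7 and 20.4 in BALB/c against 37.6 to 64.1 in the others). Some of these values rest on few nuclei. Cluster n7 held 62, 9 and 32 nuclei of C57J 1, C57J 2 and nude, and cluster n1 held 98 of BALB/c.

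**Figure D3:**
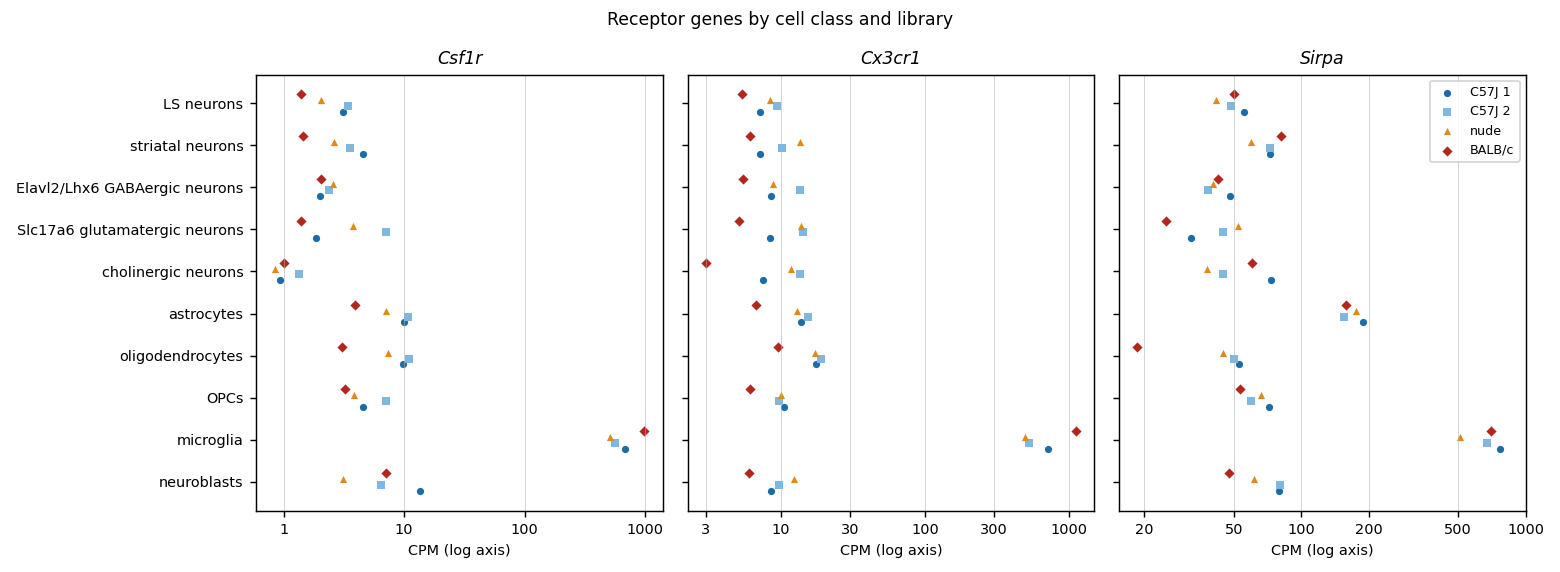
CPM (log axes, a different span in each panel) of 3 receptor genes across 10 cell classes, with 1 point per library. Csf1r and Cx3cr1 lay between 495 and 1114 in microglia and below 20 in the other classes shown, whereas Sirpa was 155.5 to 189 in astrocytes as well.

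Between backgrounds, no receptor of microglia was called different. As edgeR called 0 of all 8822 genes tested in microglia, the lack of a call says little about these receptors. *Csf1r* was 568.5 and 683 in the C57J libraries, 516 in nude and 990.3 in BALB/c, so nude fell below both C57J values and BALB/c above them, and *Cx3cr1* did the same (523 and 712 in C57J, 495 in nude, 1114 in BALB/c). In the edgeR quasi-likelihood test the log2 fold change of nude and BALB/c over C57J was 0.33 ± 0.42 (SE) for *Csf1r* (adjusted p = 0.965), 0.44 ± 0.47 for *Cx3cr1* (adjusted p = 0.96) and -0.19 ± 0.35 for *Sirpa* (adjusted p = 0.976). Without BALB/c the first became -0.22 and the second -0.27 (both not called in edgeR). Of the 7 microglia markers, 6 were likewise highest in BALB/c, where neuronal RNA in microglia was lowest and depth highest. Markers of border macrophages in this class summed to 27.8, 11.3, 5.82 and 105.5 CPM and were thus highest in BALB/c too, and the part of these values in the receptor levels was not tested. Per 100 UMIs of these 7 markers, a scaling chosen after the data were seen, *Csf1r* was 13.1, 12.2, 13.2 and 14.0, *Cx3cr1* was 13.6, 11.3, 12.6 and 15.7, and *Sirpa* was 14.6, 14.5, 13.01 and 9.85. On this scale the log2 ratio of nude and BALB/c over C57J was 0.10 for *Csf1r*, 0.19 for *Cx3cr1* and -0.35 for *Sirpa*, and *Sirpa* was lowest in BALB/c. *Cd200r1*, described next, was 0.407, 0.283, 0.643 and 0.571 on it (0.81), from few UMIs.

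*Cd200r1* (chr16:44765736-44794978, plus strand), the inhibitory receptor for CD200, was the 1 gene of the 9 that was called different. It was sparse in microglia (13, 7, 13 and 33 UMIs, or 21.3, 13.2, 25.2 and 40.5 CPM). LS neurons held 2, 2, 115 and 90 UMIs, or 0.0472, 0.0587, 2.81 and 1.68 CPM. Both C57J libraries were thus nearly empty, and nude and BALB/c did not overlap with them. In edgeR the log2 fold change in LS neurons was 5.35 ± 0.53 (SE, adjusted p = 0.00553 by Benjamini-Hochberg over all genes tested). It was called with each of the 4 libraries left out in turn (4.95 to 5.67), including within batch 2 (5.22, adjusted p = 0.00107 without C57J 1). Each of these fits left 1 background with a single library, which was assumed to vary like the other pair. On pooled counts the ratio was 41.4, with an exact Poisson 95% interval of 15.9 to 153 that covers counting error only.

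In astrocytes 1, 0, 29 and 64 UMIs were counted (0.175, 0, 7.64 and 7.62 CPM) and in OLs 0, 1, 28 and 83 (0, 0.345, 13.7 and 13.3). The log2 fold changes of 5.97 ± 0.68 and 6.13 ± 0.69 (SE) missed the threshold in edgeR (adjusted p = 0.067 and 0.066), whereas DESeq2 called both (adjusted p = 0.00716 and 0.00806). The pooled ratios were 72.4 (12.7 to 2889) and 81.0 (14.2 to 3227). OPCs held 0, 0, 5 and 7 UMIs and cholinergic neurons 0, 0, 4 and 5. Against a floor of 3 counts over the C57J pair these were 2.62-fold and 2.48-fold higher, which leaves out the counting error of nude and BALB/c. *Elavl2*/*Lhx6* neurons held 0, 1, 4 and 8 UMIs, a pooled ratio of 6.72 (0.994 to 287). *Slc17a6* neurons held 0, 1, 0 and 5, a pooled ratio of 3.97 (0.44 to 188). Both of these intervals include 1. Striatal neurons held 3, 0, 3 and 0 UMIs, with no split by background. In microglia themselves the pooled ratio was 1.98 (1.15 to 3.52), and the log2 fold change of 1.00 ± 0.43 (SE) was not called in edgeR (adjusted p = 0.96).

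The UMIs were spread over many nuclei. In LS neurons they came from 106 nude and 85 BALB/c nuclei, with at most 3 in 1 nucleus, and from 12 and 11 of the 13 LS clusters. All 4 astrocyte clusters and all 3 OL clusters held *Cd200r1* in both libraries, including cluster n0 (14 UMIs in nude against 0 and 0 in C57J) and cluster n1 (20 in nude against 0 and 0). *Cd200r1* in OLs was 54.3% of its microglial level in nude and 32.9% in BALB/c, where the 7 microglia markers in OLs reached 2.22% and 0.740%. The same percentages in astrocytes were 30.3% and 18.8% for *Cd200r1* and 2.35% and 0.938% for the markers. Markers of border macrophages (*Mrc1*, *Cd163*, *F13a1*, *Lyve1* and *Pf4*) summed to 0.354, 0.704, 0.610 and 0.857 CPM in LS neurons. Markers of lymphocytes or monocytes (*Cd3e*, *Skap1*, *Cd79a*, *Ccr2* and *Ly6c2*) summed to 3.00, 3.26, 4.71 and 3.09 in LS neurons, with *Ly6c2* at 0. In astrocytes the border macrophage list summed to 1.75, 1.85, 2.37 and 2.26 CPM, with *Pf4* at 0, so nude and BALB/c were slightly above C57J. In OLs it was 0.690 to 2.86, with both ends of the range in C57J. The lymphocyte and monocyte list was 0.701 to 3.70 in astrocytes and 0.979 to 3.45 in OLs, highest in C57J 2 in both classes and with *Cd3e* and *Ly6c2* at 0. The part of these cells in the *Cd200r1* values was not tested. After thinning to 1000 UMIs, *Cd200r1* was found in 0%, 0.0213%, 0.248% and 0.227% of LS neurons, where a count of 0 in C57J 1 allows up to 0.0620%, and in 2.48%, 1.47%, 2.04% and 5.52% of microglia.

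**Figure D4:**
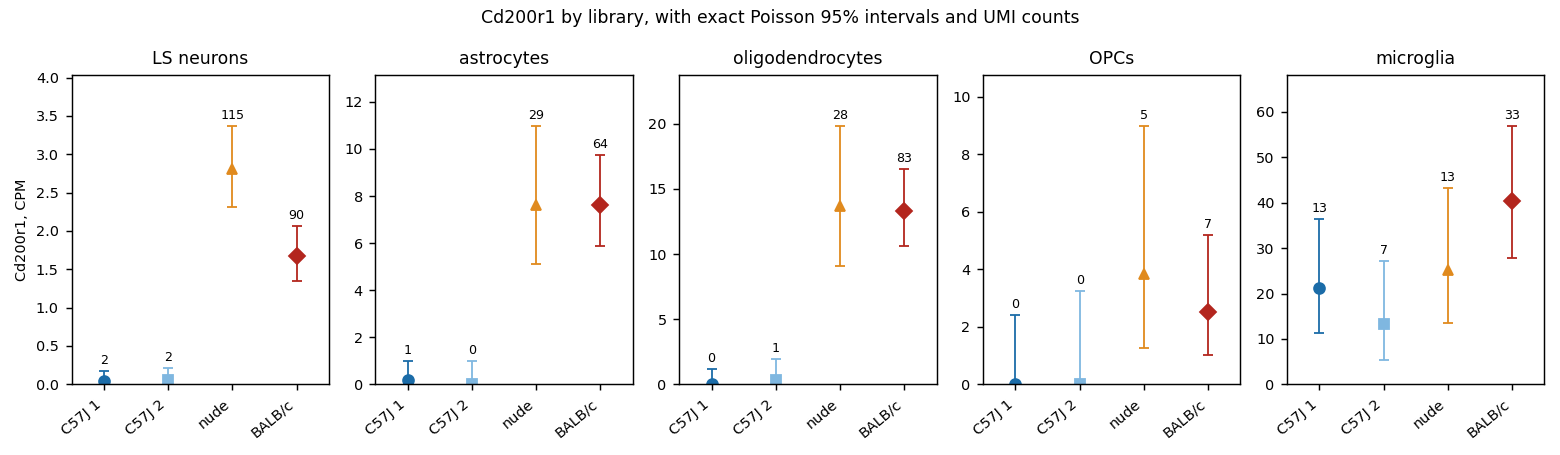
Cd200r1 in CPM (linear axes that start at 0, with a different span in each panel) in 5 classes and 4 libraries, with exact Poisson 95% intervals for counting error and the UMI count above each point. In the classes shown other than microglia the C57J libraries held 0 to 2 UMIs, whereas nude and BALB/c held 28 to 115 in LS neurons, astrocytes and oligodendrocytes.

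No neighbour of *Cd200r1* on chromosome 16 was called higher. Within 500 kb lay 13 other genes, 10 of which were tested in LS neurons. Of these 10, *Btla* alone, an inhibitory receptor of lymphocytes (chr16:45224315-45257670), was called, and it was lower in nude and BALB/c (7.74, 6.95, 2.71 and 2.80 CPM; log2 fold change -1.39 ± 0.20 SE, adjusted p = 0.0184 in edgeR). In LS neurons 3 of the 10 had an unadjusted p below the 0.05 limit in edgeR, where 14.5% of all tested genes did. None of 9 tested neighbours in astrocytes and none of 8 in OLs was called in edgeR or DESeq2. In astrocytes and OLs 0 neighbours had an unadjusted p below that limit in edgeR. Of all tested genes edgeR called 2.23% in LS neurons, 0.0567% in astrocytes and 0.00797% in OLs. With so few calls, the counts of called neighbours say little about this region. The related receptor genes *Cd200r4* (0, 1, 5 and 16 UMIs in LS neurons) and *Cd200r2* (3, 4, 9 and 26) were too sparse to be tested, and *Cd200r3* was at 0 in LS neurons of all libraries. As these paralogs are alike in sequence, the share of reads assigned to each is uncertain.

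For the set as a whole, 1 of 9 tested members was called in LS neurons (*Cd200r1*, higher), where 2.23% of all 18520 tested genes were called. The other 8 had log2 fold changes between -0.92 and 0.10. None of 7 tested members was called in striatal neurons (background 0.343%), none of 9 in astrocytes (0.0567%), none of 9 in OLs (0.00797%), none of 6 in OPCs (0.498%) and none of 7 in microglia, where edgeR called 0 of 8822 genes (0%). In microglia 417 genes had an unadjusted p below the 0.05 limit in edgeR and DESeq2 called 15, none of them a member. At an unadjusted p below that limit stood *Csf1r* and *Cd200r1*, 2 members, in each of LS neurons, astrocytes and OLs and 0 in striatal neurons, OPCs and microglia. Of all tested genes 14.5% stood below it in LS neurons, 7.52% in astrocytes, 5.32% in OLs and 4.73% in microglia. DESeq2 called 1 member (*Cd200r1*) in each of LS neurons, astrocytes and OLs. Over all tested genes DESeq2 called 643 of 18520, 94 of 14112 and 74 of 12554 in these classes. The median log2 fold change of the members in LS neurons was -0.05, against -0.01 over all tested genes.

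*Il34* in LS neurons had a log2 fold change of 0.10 ± 0.17 (SE), *Cx3cl1* 0.10 ± 0.21, *Cd200* 0.03 ± 0.09 and *Cd47* -0.05 ± 0.08, and none was called. *Csf1r* in nude and in BALB/c was below both C57J libraries in each of the 4 classes other than microglia in which it was tested, without a call, and likewise in OPCs, where it was too sparse to be tested (4.58, 7.02, 3.85 and 3.25 CPM). These classes share the same libraries, and the share of all genes that did the same was not counted, so the number of classes is no result about *Csf1r*. The log2 fold change of *Csf1r* was -0.92 ± 0.26 (SE) in LS neurons (adjusted p = 0.17 in edgeR), -0.91 ± 0.36 in astrocytes, -1.12 ± 0.45 in OLs and -1.09 ± 0.49 in striatal neurons. The summed microglia markers were 43.4, 55.2, 45.0 and 33.8 CPM in LS neurons and 85.3, 109, 92.2 and 66.5 in astrocytes, and their part in these values was not tested. *C1qc*, a complement gene of microglia in the pathway list, had negative values beside it (-1.45 in LS neurons and -2.15 in astrocytes, not called in edgeR). *Csf1* in OLs was 50.4 and 58.0 in nude and BALB/c against 64.6 and 72.1 in C57J, without overlap, with a log2 fold change of -0.27 ± 0.22 (SE). *Sirpa* in OLs had a log2 fold change of -0.72 ± 0.37 (SE) that rested on BALB/c. Without nude it was -1.33, in a fit that took the spread from the C57J pair alone. The summed neuronal markers in OLs were 29.8%, 32.8%, 42.9% and 14.9% of their LS neuron level and thus also lowest in BALB/c, and their part in the *Sirpa* value was not tested.

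**Figure D5:**
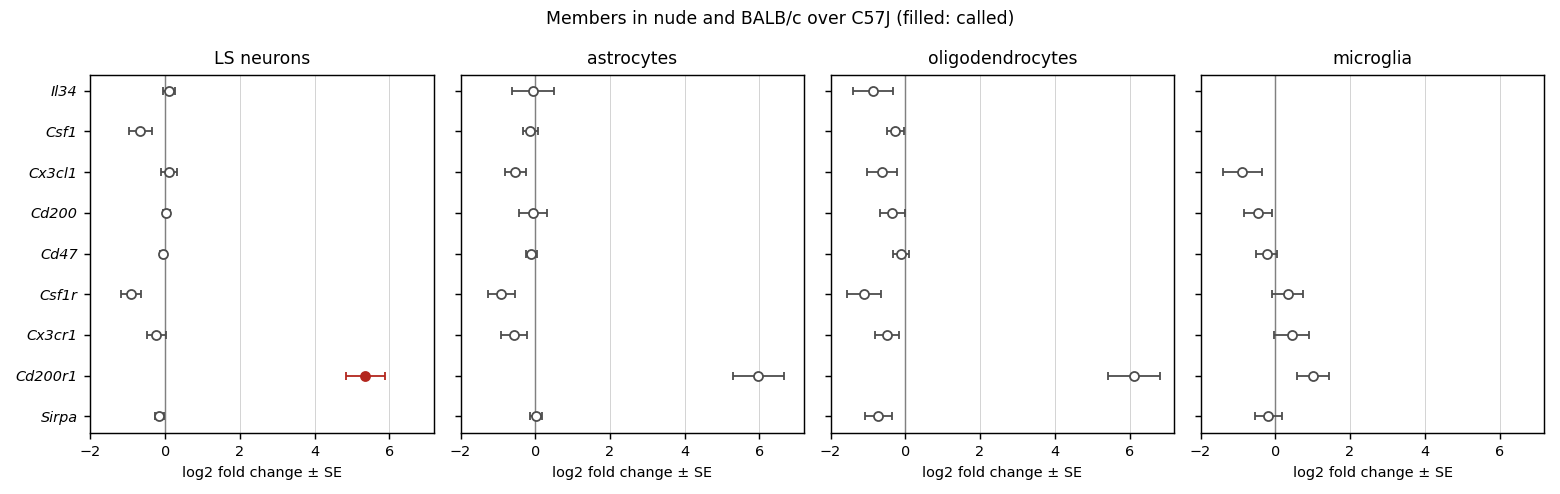
Log2 fold change of nude and BALB/c over C57J (edgeR, points, with standard errors as bars) for the members tested in 4 classes; filled points were called and Il34 and Csf1 were not tested in microglia. Cd200r1 reached 5.35 to 6.13 in LS neurons, astrocytes and oligodendrocytes and was called in LS neurons, whereas the other members lay between -1.12 and 0.44.

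Of 53 further genes of these pathways (further receptors, adaptors and transcription factors of the CSF1R axis, sheddases and integrins of fractalkine, CD200 receptor paralogs and adaptors, thrombospondins and partners of CD47, and other neuron to microglia signals), 42 were tested in LS neurons and 1 was called. Of all 18520 genes tested there 2.23% were called, and 1 of 42 is near that share. The called gene was *Itgav*, an integrin subunit that can bind fractalkine, at 22.8, 21.6, 33.9 and 35.4 CPM (log2 fold change 0.66 ± 0.11 SE, adjusted p = 0.031 in edgeR). The call was lost without nude (adjusted p = 0.112) or without BALB/c (adjusted p = 0.226), although the fold change stayed at 0.70 and 0.62. The median log2 fold change of the 42 in LS neurons was -0.23, against -0.01 over all tested genes. By list it ran from -0.41 for the other neuron to microglia signals, which include microglial genes such as *C1qc*, to -0.06 for the CD47 axis. The part of microglial RNA in these values was not tested. In LS neurons 10 of the 42 had an unadjusted p below the 0.05 limit in edgeR, where 14.5% of all tested genes did. In edgeR none was called among 27 tested in striatal neurons, 35 in astrocytes, 32 in OLs, 23 in OPCs and 37 in microglia, where 4, 3, 5, 7 and 0 had an unadjusted p below the 0.05 limit, against 8.76%, 7.52%, 5.32%, 7.45% and 4.73% of all tested genes. DESeq2 called *Itgav* and *C1qb* in LS neurons, *C1qc* in astrocytes and *Tgfbr2* in OLs, of 42, 35 and 32 tested. Its calls over all tested genes there were 643 of 18520, 94 of 14112 and 74 of 12554. *Tgfbr2*, a receptor subunit for TGF-beta, stood at 3.18 and 4.14 CPM in the OLs of C57J 1 and 2 and at 58.7 and 83.0 CPM in those of nude and BALB/c (4.35 ± 0.36, adjusted p 0.0504 in edgeR). In the OL clusters, split as given above, most nude nuclei lay in the same cluster as those of C57J, and most BALB/c nuclei did not. *C1qb*, *C1qc* and *Tgfbr2* were chosen after their values were seen.

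The genes most like each member were sought by Pearson's r of the log2 level across 16 cell classes that share libraries, as a description. *Csf1r* was followed most closely by *Fcrls* (r = 0.980), *Ctss* (0.974) and *Siglech* (0.973), which were highest in microglia. *Cx3cr1* was closest to *Gcnt1* (0.966) and *Dock8* (0.963), *Sirpa* to *Trim30a* (0.941) and *Apobec1* (0.927), and *Cd200r1* to *Tmem173* (0.914) and *Ly86* (0.911), all highest in microglia. *Csf1* was closest to *Snx33* (0.934), *Ttyh2* (0.915) and *Cdh19* (0.909), which were highest in OLs. *Cx3cl1* was closest to *Phyhip* (0.933), *Cd200* to *Disp2* (0.886) and *Ache* (0.882), and *Il34* to *Cemip* (0.873), which was highest in vascular nuclei. *Cd47* had no close follower, the best being *Casz1* at 0.757.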

How the data were processed

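UMI counts deposited by the authors were used: raw counts per gene and barcode, aligned with Cell Ranger 7.0.1 to mm10 per the labels, without normalization. mm10 is the C57BL/6J genome, and an effect of the strain's own sequence on alignment was not tested. Barcodes with 200 to 6000 genes, 300 to 50000 UMIs and under 2.0% mitochondrial UMIs were kept, and predicted doublets were removed at 0.8% per 1000 nuclei. The 4 libraries were clustered together (leidenalg 0.10.2, resolution 1) without the 9 members, the 53 pathway genes, 6 sex-linked genes and 131 genes that separate the strains. A cluster took the name of a class with 3 or more of its markers at 10 CPM or above and a sufficient marker score. This score, the mean level of the markers relative to the highest cluster, had to reach 0.35 for neurons and 0.5 for other nuclei. Clusters with more markers of another class among their 10 leading genes stayed unnamed. Cluster 3 (2523 nuclei), whose best score was for LS neurons (0.495), was left unnamed by this last rule. UMIs were summed per library and class and tested with edgeR 4.0.16 in R 4.3.3 (filterByExpr, TMM, quasi-likelihood F test, Benjamini-Hochberg), and a call needed an adjusted p under 0.05 and a log2 fold change beyond 0.5 in either direction, after a test on simulated data. DESeq2 1.42.0, filters, doublets, resolution, seed, thinning and left-out libraries were alternatives. Members and lists were chosen with earlier results of these data known, and the naming limits after clusters were seen. Named genes are the members, the pathway genes called, the 3 genes most alike per member (of which the closest are printed) and, chosen after their values were seen, *Btla*, *C1qb*, *C1qc*, *Tgfbr2* and the *Cd200r* paralogs. A count of 0 was read as allowing 3 counts. Intervals cover counting error only, since PCR and pooling of mice are not in them. Positions come from GENCODE on GRCm38 by identifier and promoter sequences from RefSeq on GRCm38.p6. Whether intronic reads were counted is not given in the sources used here.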

Additional observations from a re-analysis of the deposited data

Results flagged for a closer look

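In 5 instances, among the members tested in each of 6 classes, every nude and BALB/c value of a member lay on one side of both C57J libraries in one class and on the other side in another class. None of these differences was tested, and neither *Il34* nor *Cd47* was called in the classes concerned. The share of all genes that did the same was not counted, so the number of instances is no result about these members. *Il34* was higher in nude and BALB/c in LS neurons (log2 ratio 0.08) and lower in striatal neurons (-0.155), a difference of 0.23. In striatal neurons BALB/c (20.11 CPM) lay barely below C57J 1 (20.13 CPM). *Il34* was also lower in OLs (-0.84), a difference of 0.92, from 12, 10, 5 and 10 UMIs. *Cd47* was higher in striatal neurons (0.14) and lower in astrocytes (-0.17), OPCs (-0.27) and microglia (-0.30), with differences of 0.31, 0.41 and 0.44. Neuronal RNA in the glial classes was lowest in BALB/c, and its part in these differences was not tested. *Csf1* in microglia, too sparse to be tested, was 9.70 and 11.04 CPM in nude and BALB/c against 8.19 and 9.41 CPM in C57J, from 5 to 9 UMIs, whereas it was lower than C57J in LS neurons, striatal neurons and OLs.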

How the results depend on the processing

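No paired analysis was possible because nude and BALB/c have 1 library each and the labels pair neither with a C57J library. The number of called genes was the least stable result. With DESeq2 it was 643 in LS neurons, 78 in striatal neurons, 94 in astrocytes, 74 in OLs, 33 in OPCs and 15 in microglia, against 413, 44, 8, 1, 54 and 0 in edgeR. Without a filter on low counts it was 1030, 430, 448, 250, 182 and 91. Thinning gave 157 in LS neurons, 9 in striatal neurons, 0 in astrocytes and 15 in OPCs. Keeping doublets gave 76 in striatal neurons, 4 in OLs, 28 in OPCs and 24 in microglia, and stricter limits and resolution 2 gave 78 and 70 in striatal neurons. Leaving out 1 library gave 127 to 1165 in LS neurons, 22 to 93 in striatal neurons, 0 to 935 in astrocytes, 0 to 821 in OLs, 80 to 443 in OPCs and 0 to 1051 in microglia, and the high ends in glia came without nude, that in LS neurons without C57J 2.

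*Cd200r1* in LS neurons was called under every alternative except thinning (4.23, adjusted p = 0.0665 in edgeR). In astrocytes and OLs it was called with DESeq2, without a filter and without nude, and in OLs also without BALB/c (adjusted p = 0.042 in edgeR). The *Itgav* call was also lost with doublets kept, thinned counts and all neurons. *Il34* in LS neurons turned to -0.11 when all neurons were used. Leaving out 1 library turned the sign of uncalled fold changes, which ranged in LS neurons from -0.27 to 0.38 for *Cx3cl1*, -0.015 to 0.08 for *Cd200*, -0.13 to 0.031 for *Cd47* and -0.59 to 0.039 for *Cx3cr1*, in microglia from -0.22 to 0.71 for *Csf1r*, -0.27 to 0.90 for *Cx3cr1* and -0.44 to 0.002 for *Sirpa*, and in astrocytes from -0.27 to 0.016 for *Csf1* and -0.12 to 0.18 for *Sirpa*.

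Of 168 log2 ratios between classes under other settings, 164 stayed within 1 SD. The others were *Il34* in striatal over LS neurons when thinned (1.42) and, with doublets kept, *Csf1* in OLs (4.68) and astrocytes (3.78) and *Sirpa* in microglia (3.59) over LS neurons. Without 1 library the ratio of LS neurons to OLs ranged from -0.062 to 0.55 for *Cx3cl1*, -0.044 to 0.34 for *Cd200*, -0.12 to 0.028 for *Cd47* and -0.027 to 0.49 for *Sirpa*, and that of LS neurons to microglia from -0.20 to 0.58 for *Cx3cl1*. The causes were not tested. Depth limited the sparse members in microglia, with 7 to 33 UMIs per library for *Cd200r1*, 5 to 9 for *Csf1* and 0 to 3 for *Il34*.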
